A study of Danio rerio with 3 samples.

Results

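Melanin pigment genes were followed across 3 RNA-seq libraries of whole zebrafish larvae. Of 10 genes listed (tyr, dct, tyrp1a, tyrp1b, pmela, slc24a5, slc45a2, oca2, mitfa and mlana), 9 were found by their symbol among 24555 genes. The other one, mlana, has no symbol in the deposited tables. It was found by its gene identifier (110438214), which RefSeq pairs with that symbol, and its values are given apart from those of the 9. The 10 genes were listed by name, with earlier results of these data known.

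Each library came from 30 pooled larvae at 7 days post fertilization on the AB background, with 1 library per group. The control was wild type. The knockout was titled serpini1-/-, with the genotype label Tg (serpini1-/-), and serpini1 encodes neuroserpin, a protease inhibitor of neurons. The transgenic group carried Tg (huc:teton:gal4; tre:serpini1:mkate2), in which the neuronal huC promoter drives a doxycycline-dependent activator of serpini1 and of mKate2, a red fluorescent protein. Doxycycline at 40 µg/mL was in the water of every group, control included, between day 3 and day 7. No group carried the activator and mKate2 without serpini1, so these cannot be told apart in the transgenic library. With no replicate libraries, no test between groups was possible and no p-value of a condition is given.

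Levels are FPKM, fragments normalised by transcript length and library depth, which can be compared between genes. Their 95% intervals are exact Poisson intervals, and those of ratios are Clopper-Pearson intervals. Both rest on reads estimated from the inferred depth of 7880000 fragments in the control, 7900000 in the knockout and 8120000 in the transgenic library. They cover counting error only, so the spread between pools of larvae is unknown. The targeted gene stood at 20.04 FPKM in control, 8.05 in the knockout and 288 in the transgenic library. Transcript of serpini1 was thus still present in the library labelled knockout.

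In larval zebrafish, melanin is made in melanophores, which come from the neural crest, and in the retinal pigment epithelium, which comes from the optic cup. The transcription factor Mitfa is required for the melanophores of the body and activates genes of melanin synthesis, while pigment of the eye forms without it. Melanin is built inside melanosomes, where tyrosinase oxidizes tyrosine, tyrosinase-related proteins act on later intermediates, fibrils of the protein Pmel hold the pigment, and membrane transporters keep the ions and pH of the organelle. Fewer pigment cells and less RNA per cell cannot be told apart in whole larvae.

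All 9 genes had a value in every library, and their levels spanned a 66.4-fold range in control. The summed level of the 9 was 148 FPKM in control, 161 in the knockout and 142 in the transgenic library. Tyrp1b and pmela made up 64.8%, 63.4% and 65.3% of that sum. In the order of levels tyrp1a was the sixth in control, the fourth in the knockout and the fifth in the transgenic library. Slc24a5 stood above oca2 in the knockout and transgenic libraries and below it in control, and slc45a2 was the fourth in control, the fifth in the knockout and the third, above dct, in the transgenic library. In the deposited annotation, 5 of the 9 (tyr, dct, tyrp1a, tyrp1b and mitfa) are assigned to the KEGG melanogenesis pathway.

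**Figure D1:**
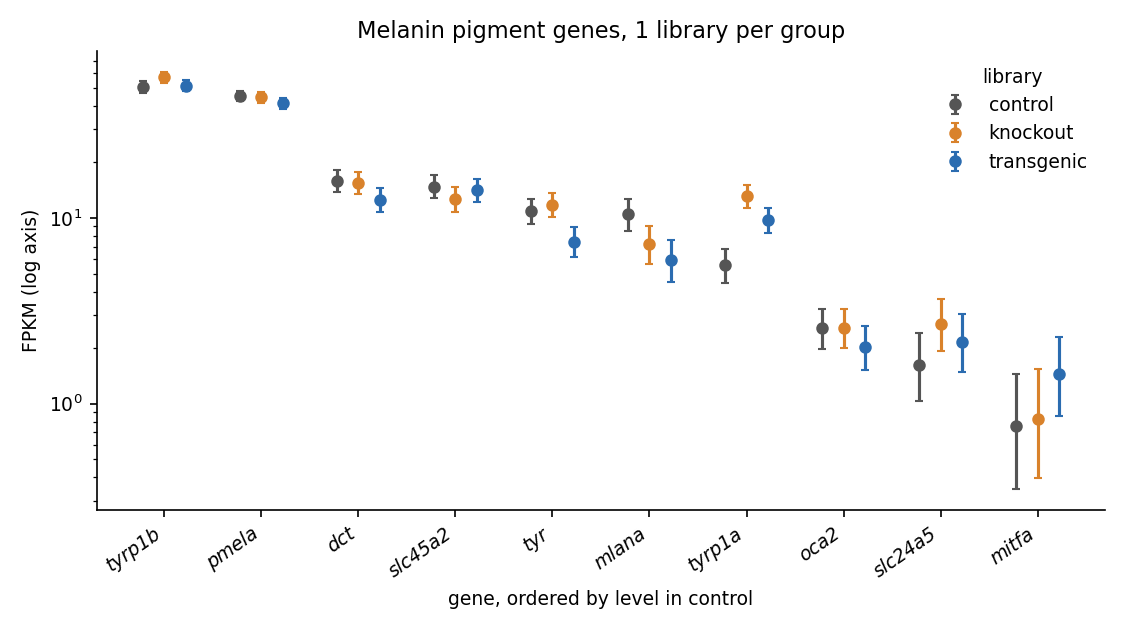
FPKM on a log axis of the 9 melanin pigment genes and mlana, ordered by their level in control, with 1 point per library and 95% exact Poisson intervals for counting error. Tyrp1b and pmela stand at 41.4 FPKM or more in every library, and tyrp1a is the gene whose knockout point, at 13.1, lies farthest above its control point, at 5.54.

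Tyrosinase (tyr, gene identifier 30207) catalyses the first and limiting step of melanin synthesis, and its loss leaves zebrafish without melanin. It stood at 10.9 FPKM in control (9.27 to 12.7), 11.7 in the knockout (10.05 to 13.6) and 7.44 in the transgenic library (6.14 to 8.93). The transgenic value was the low one, and its interval did not overlap those of the other libraries. It was 1.46-fold lower than control (1.14 to 1.87) and 1.57-fold lower than the knockout (1.24 to 2.01). In the transgenic comparison, 10.05% of all genes lay below the log2 ratio of tyr, so a difference of this size was not rare.

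Dopachrome tautomerase (dct, 58074) converts dopachrome to a carboxylated indole on the way to eumelanin. It stood at 15.9 FPKM in control, 15.5 in the knockout and 12.5 in the transgenic library. Control and knockout were nearly equal, with a ratio of 0.975 (0.805 to 1.18). The transgenic level was 1.27-fold lower than control (1.04 to 1.55) and 1.24-fold lower than the knockout (1.01 to 1.52). In these comparisons 19.2% and 18.5% of all genes lay below the log2 ratio of dct, so differences of this size were not rare.

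The pair tyrp1a and tyrp1b are zebrafish copies of the single mammalian gene of tyrosinase-related protein 1, which acts late in eumelanin synthesis and stabilizes tyrosinase. Tyrp1b (437022) was the most abundant of the 9, at 50.5 FPKM in control (46.9 to 54.2), 57.3 in the knockout (53.5 to 61.3) and 51.4 in the transgenic library (47.9 to 55.1). It was 1.13-fold higher in the knockout than in control (1.03 to 1.25). There 77.5% of all genes lay below the log2 ratio of tyrp1b, so a difference of this size was not rare. Its transgenic level was 1.02 times that of control (0.920 to 1.13), so the interval held equality.

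Tyrp1a (100333145) was the member that differed most between libraries. It stood at 5.54 FPKM in control (4.44 to 6.83), 13.1 in the knockout (11.3 to 15.0) and 9.69 in the transgenic library (8.23 to 11.3). Control was the low library, and its interval did not overlap the other intervals. The knockout level was 2.36-fold higher than control (1.83 to 3.07) and the transgenic level 1.75-fold higher (1.34 to 2.30). Between these libraries, the transgenic was 1.35-fold lower than the knockout (1.09 to 1.67). Both ratios over control share the same control library, so they are not independent. In the transgenic comparison with control, 91.5% of all genes lay below the log2 ratio of tyrp1a, so a difference of this size was not rare there. In the authors' deposited table the log2 ratio of tyrp1a over control was 1.24 in the knockout and 0.81 in the transgenic library.

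The balance of the pair therefore differed between libraries. Tyrp1b was 9.11-fold more abundant than tyrp1a in control, 4.38-fold in the knockout and 5.31-fold in the transgenic library. Tyrp1a made up 3.75% of the summed level of the 9 genes in control, 8.13% in the knockout and 6.82% in the transgenic library. The sum of both copies was 56.0, 70.4 and 61.1 FPKM. Reads of tyrp1a were assigned by the authors to 3 transcript models and those of tyrp1b to 1, and whether reads were split between the copies was not tested.

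Genes beside tyrp1a, looked up after its values were seen, did not have its pattern. The nearest gene with at least 1 FPKM on one side in RefSeq's order, LOC100330629, stood at 57.2 FPKM in control, 50.5 in the knockout and 41.7 in the transgenic library. The nearest on the other side, ppp1cbl, which belongs to the catalytic subunits of protein phosphatase, stood at 125, 95.1 and 109 FPKM. Both were higher in control than in either other library, whereas tyrp1a was lower there. Neighbours of tyr were also looked up after the values were seen. On one side grm5b stood at 1.67 FPKM in control, 1.59 in the knockout and 0.83 in the transgenic library. It was near the floor of 1 FPKM and lowest in the transgenic library, as tyr was. On the other side naalad2 stood at 8.27, 10.5 and 8.78 FPKM. The part of gene position in these levels was not tested.

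Pmela (321239) encodes the protein that forms the fibrils of the melanosome, and the ratio of its highest to its lowest level was the smallest of the 9. It stood at 45.3 FPKM in control (42.4 to 48.3), 44.6 in the knockout (41.7 to 47.6) and 41.4 in the transgenic library (38.7 to 44.3). All 3 intervals overlapped. The ratio to control was 0.985 in the knockout (0.897 to 1.08) and 0.915 in the transgenic library (0.832 to 1.006).

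Mlana (110438214) encodes a small melanosome membrane protein that in mammals binds Pmel and takes part in its maturation. It stood at 10.4 FPKM in control (8.52 to 12.6), 7.21 in the knockout (5.64 to 9.08) and 5.90 in the transgenic library (4.51 to 7.58). Control was the high library here, the reverse of tyrp1a. The level was 1.45-fold lower in the knockout (1.06 to 1.98) and 1.77-fold lower in the transgenic library (1.28 to 2.47). Its log2((FPKM + 1)/(FPKM + 1)) was -0.48 and -0.73, and 7.06% and 3.73% of all genes lay below it.

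The transporter genes were similar in sum, at 18.9, 17.8 and 18.2 FPKM. Slc45a2 (558311), a melanosome membrane transporter that acts on its pH and is mutated in albino zebrafish, was the most abundant of them. It stood at 14.7 FPKM in control, 12.6 in the knockout and 14.1 in the transgenic library, and each interval of its ratios held equality. The ratio to control was 0.855 in the knockout (0.692 to 1.06) and 0.956 in the transgenic library (0.780 to 1.17).

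Slc24a5 (570312), a potassium-dependent sodium-calcium exchanger mutated in golden zebrafish, had low levels. It stood at 1.62 FPKM in control (1.04 to 2.41), 2.69 in the knockout (1.92 to 3.66) and 2.15 in the transgenic library (1.48 to 3.02), from 24, 40 and 33 estimated reads. The knockout level was 1.66-fold that of control, with an interval from 0.977 to 2.88, so a difference was not detectable at this depth. Oca2 (567419), a melanosome membrane protein of chloride conductance, stood at 2.54, 2.55 and 2.01 FPKM. Its ratio to control was 1.004 in the knockout (0.709 to 1.42) and 0.791 in the transgenic library (0.546 to 1.14). Herc2, which neighbours oca2 and was named after its values were seen, stood at 20.8, 14.4 and 11.3 FPKM and was lower in both libraries than in control.

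Mitfa (30080), the transcription factor mutated in nacre zebrafish, was the lowest of the 9. It stood at 0.76 FPKM in control (0.348 to 1.44), 0.83 in the knockout (0.398 to 1.53) and 1.45 in the transgenic library (0.859 to 2.29), from 9, 10 and 18 estimated reads. The transgenic level was 1.91-fold that of control, but the interval ran from 0.814 to 4.82. At this depth neither a difference nor a lack of one could be shown for mitfa.

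**Figure D2:**
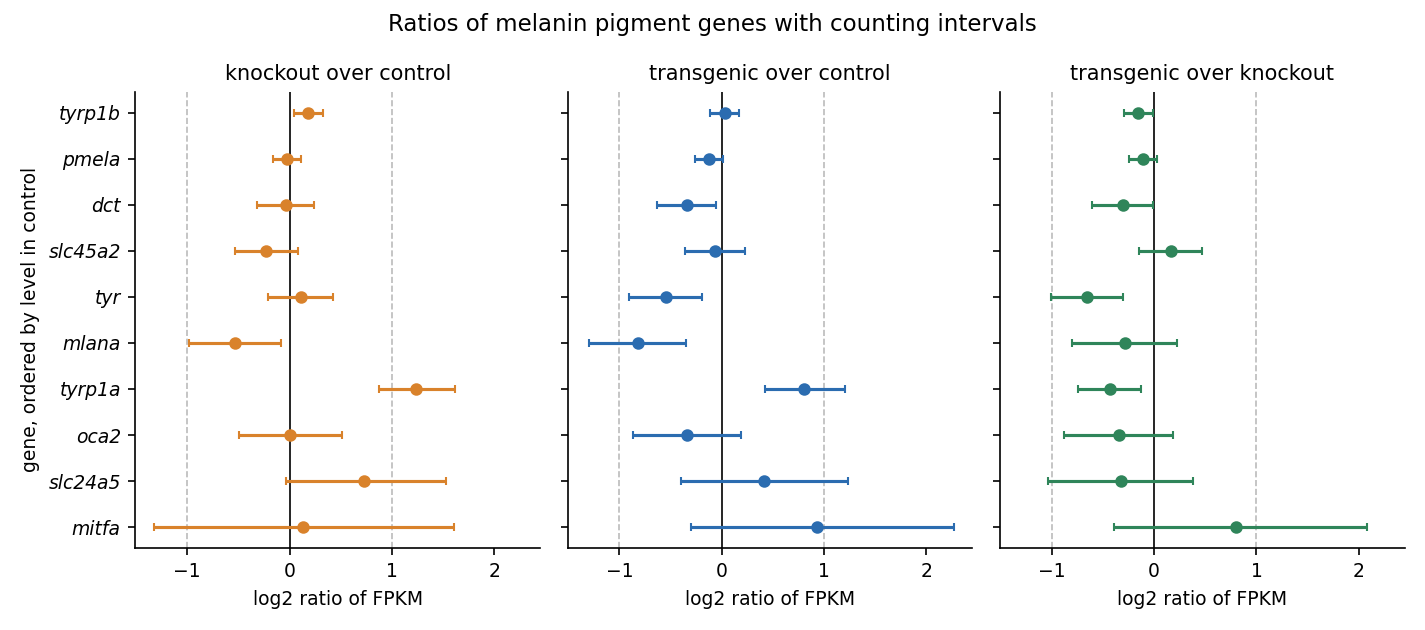
Log2 ratio of FPKM, without a pseudocount, of each gene in the 3 comparisons, with 95% Clopper-Pearson intervals for counting error and dashed lines at a 2-fold difference. The tyrp1a interval lies above 0 in both comparisons with control. The tyr, dct and mlana intervals lie below 0 for the transgenic over control, and that of mlana also for the knockout over control. The widest intervals belong to mitfa, with 9 to 18 reads.

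Where neighbours in the order of levels differed by less than their intervals, the order is not settled. Dct and slc45a2 overlapped in each library, and so did oca2 and slc24a5. Tyrp1b and pmela overlapped in control, but the interval of tyrp1b lay above that of pmela in the knockout and in the transgenic library. Tyrp1a lay below tyr without overlap in control, and overlapped tyr in the knockout and the transgenic library.

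The size of a difference over all genes was taken as log2((FPKM + 1)/(FPKM + 1)), which understates ratios of low genes, and a gene counted as 2-fold higher or lower at an absolute value of 1 or more. In the knockout over control, 1 of the 8 genes that reached 1 FPKM in either library passed, tyrp1a at 1.11, and none of the 8 passed on the lower side. Mitfa was under 1 FPKM in both. Of all 18663 genes compared, 1.46% passed, 0.798% on the higher and 0.664% on the lower side, and 99.4% lay below the value of tyrp1a. The other 7 lay between -0.21 (slc45a2) and 0.49 (slc24a5). The median of the 8 was 0.05, beside -0.03 for all genes, with 5 above 0 and 3 below, or 7 and 1 once ratios were divided by their median over the genes that reached 5 FPKM in each of the compared libraries. Of all 18663 genes, 8385 lay above 0 and 10153 below before this scaling. Knockout values under 0.58 FPKM are mostly missing, so genes lower in the knockout can be undercounted in the shares and counts of all genes. Tyrp1a was under the 2-fold rule, at 0.78, with a pseudocount of 5 FPKM. The ratio intervals of 2 of the 9, tyrp1a and tyrp1b, left out equality, both on the higher side. That of mlana, kept apart from the 9, left it out on the lower side. Among all genes 26.2% left out equality (10.5% higher and 15.7% lower). The 9 include mitfa, which is under the floor of 1 FPKM set for all genes here. The 2 of 9 are near the share of both directions together but above that of the higher side alone. A count this small is not read further.

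**Figure D3:**
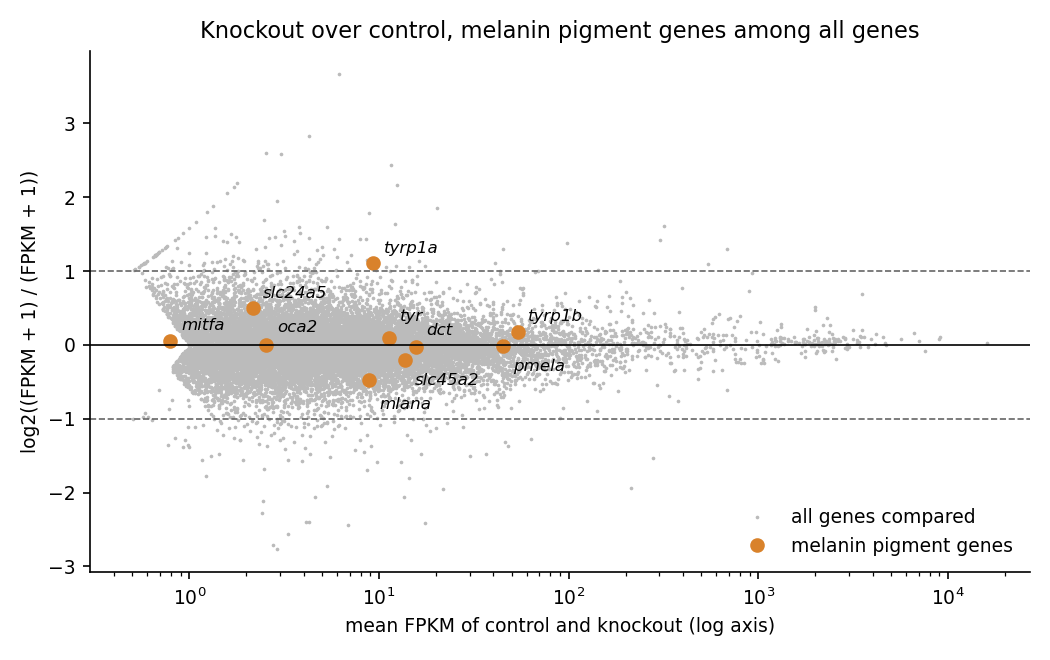
Log2((FPKM + 1)/(FPKM + 1)) of the knockout over control against the mean FPKM of these libraries on a log axis, for all 18663 genes compared (grey) and the melanin pigment genes with mlana (orange), with dashed lines at a 2-fold difference; mitfa is under the floor of 1 FPKM. Tyrp1a, at 1.11, is the only orange point past a dashed line, and pmela, dct, oca2 and mitfa lie close to 0.

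In the transgenic over control, 0 of the 9 passed the 2-fold rule, beside 4.82% of 19242 genes (3.56% higher and 1.26% lower). Values ran from -0.49 (tyr) to 0.71 (tyrp1a), with a median of -0.06 beside 0.03 for all genes. Of the 9, 4 lay above 0 (tyrp1a, mitfa, slc24a5 and tyrp1b) and 5 below. Of all 19242 genes, 10108 lay above 0 and 9088 below. Tyrp1b moved to just below 0 once ratios were divided by the median ratio. The ratio intervals of 3 of the 9 left out equality, with tyrp1a higher and tyr and dct lower. That of mlana, kept apart from the 9, also left it out, on the lower side. Among all genes 43.8% did so (23.5% higher and 20.3% lower). Leaving out equality thus did not set these members apart from other genes.

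In the transgenic over knockout, 0 of the 9 passed the rule, beside 3.94% of 18775 genes (2.86% higher and 1.08% lower). The median was -0.23 beside 0.04 for all genes (-0.31 to -0.11 with pseudocounts of 0.1 and 5 FPKM), and 7 of the 9 lay below 0. Of all 18775 genes, 8577 lay below 0. Knockout values under 0.58 FPKM are mostly missing, so the higher side of all genes can be undercounted here. The intervals of tyr, dct, tyrp1a and tyrp1b left out equality, all on the lower side. Among all genes 40.6% did so (23.4% higher and 17.2% lower). The 4 of 9 are near the share of both directions together but above that of the lower side alone. A count this small is not read further. The largest of these differences was that of tyr, at -0.59. Slc45a2 and mitfa were the members above 0, at 0.15 and 0.42, and their intervals held equality.

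Genes of melanosome assembly and transport, which carry cargo to the melanosome and move it along the cytoskeleton, were examined next as a list of 36. Of 34 compared in the knockout, 12 lay above 0, 22 below and 0 past the rule, with a median of -0.07, or -0.21 over the 14 genes at a floor of 5 FPKM. In the transgenic library 11 of 34 lay above 0, 23 below and 0 past the rule, with a median of -0.10. Over all genes, 10153 of 18663 lay below 0 in the knockout and 9088 of 19242 in the transgenic library. In either direction 1.46% and 4.82% of them passed the rule. The most abundant of the list was cd63, a tetraspanin of endosomes and lysosomes. It stood at 124 FPKM in control, 101 in the knockout and 202 in the transgenic library. Tspan36, a tetraspanin of pigment cells, stood at 32.7, 25.1 and 46.7. The summed level of the list, at 331, 292 and 406 FPKM, thus moved with cd63 more than with its median. Bloc1s6, a subunit of the complex that sorts cargo to melanosomes, stood at 18.8, 18.9 and 15.1 FPKM, and its partner dtnbp1a at 15.3, 12.6 and 13.9.

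Pmelb, the second zebrafish copy of the fibril gene, stood at 2.34 FPKM in control, 3.71 in the knockout and 0.99 in the transgenic library. On the log2 scale it differed by 0.50 and -0.75 from control and by -1.24 between the transgenic and the knockout. It was the 1 gene of all 96 compared in the other lists past the rule there, beside 3.94% of all genes (1.08% lower). Its transgenic level was 0.267 times that of the knockout (0.146 to 0.462). Pmelb did not pass with a pseudocount of 5 FPKM. It was named after its values were seen. Pmela, in contrast, differed by -0.10 in that comparison.

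Signals and regulators of melanophores formed a list of 28. In the knockout 10 of 24 lay above 0, 14 below and 0 past the rule, with a median of -0.03. In the transgenic library 16 of 26 lay above 0 and 10 below, with a median of 0.03. None of the 26 passed on the higher side and 2 did on the lower. Of all 19242 genes, 10108 lay above 0, and 3.56% passed on the higher and 1.26% on the lower side. In the knockout 10153 of all 18663 genes lay below 0 and 1.46% passed in either direction. Counts this small are not read further. The 2 are both precursors of melanin-concentrating hormone, a peptide that makes fish melanosomes aggregate so that the skin pales. Pmchl stood at 7.80 FPKM in control, 4.67 in the knockout and 2.38 in the transgenic library, 3.28-fold lower than control (1.44 to 8.38). Pmch stood at 1.09 FPKM in control, near the floor of 1 FPKM, was listed at 0 in the transgenic library, and had no knockout value in the data used here. With a pseudocount of 5 FPKM neither precursor passed.

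Other abundant genes of the list differed less. Tfap2a, a transcription factor of the neural crest, stood at 26.5, 31.0 and 25.6 FPKM in control, knockout and transgenic. Trpm1b, a cation channel gene, stood at 13.7, 17.2 and 10.9. The agouti-family gene asip2b, written agrp2 in the files, stood at 13.7, 11.3 and 7.40 and had the widest gap of these, 1.85-fold lower in the transgenic library than in control (1.53 to 2.24). Usf1, a factor that binds E-boxes, stood at 10.4, 12.6 and 15.8.

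Other cells that share the neural crest origin or the pigment were compared by their markers. Of 11 xanthophore markers, 6 lay above 0 in the knockout (median 0.13) and 8 in the transgenic library (median 0.30), with 1 and 3 past the rule, all higher. Of all genes, 8385 of 18663 and 10108 of 19242 lay above 0, and 0.798% and 3.56% passed on the higher side. With a pseudocount of 5 FPKM, 0 of these markers passed in either comparison. Counts this small are not read further. Gch2, which starts the synthesis of pteridine pigments, stood at 10.9 FPKM in control, 23.9 in the knockout and 25.0 in the transgenic library, and so was lowest in control, as tyrp1a was. The aldehyde oxidase gene aox5 stood at 1.27, 2.37 and 4.33, and the sugar transporter gene slc2a15a at 0.83, 1.98 and 2.96. Both were near the floor of 1 FPKM in control. Other abundant xanthophore markers did not share that order: xdh stood at 6.27, 5.78 and 7.22, scarb1 at 6.54, 6.19 and 3.61 and bco1, which cleaves carotene, at 10.6, 10.4 and 7.71. At a floor of 5 FPKM the transgenic median of this list was -0.12, over 6 genes.

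Iridophore markers, of cells that reflect light with purine crystals, had 5 of 12 above 0 in the knockout (median -0.06) and 8 of 13 in the transgenic library (median 0.13), with 0 past the rule in each. The purine synthesis genes paics at 28.9, 23.6 and 30.2 FPKM, prps1a at 19.6, 18.1 and 21.4 and impdh1b at 12.4, 11.9 and 11.1 were all under the 2-fold rule. Fhl2a stood at 11.4, 14.4 and 19.8. Neural crest markers had 5 of 7 above 0 in the knockout (median 0.08) and 4 of 7 in the transgenic library (median 0.19), with 0 past the rule. Among them foxd3 stood at 11.6, 12.1 and 9.49 FPKM, tfap2c at 6.45, 7.12 and 8.60 and snai2 at 8.16, 8.07 and 12.4. Of all genes, 8385 of 18663 lay above 0 in the knockout and 10108 of 19242 in the transgenic library. In either direction 1.46% and 4.82% passed the rule, so 0 past it in lists this short is not read further.

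Markers of the retinal pigment epithelium, the other melanin-making tissue, lay mostly below 0 in the transgenic library. Of all 19242 genes, 9088 lay below 0 in this comparison and 4.82% passed the rule in either direction. Of 10 markers compared, 2 lay above 0 and 8 below, with 0 past the rule and a median of -0.32. That median was -0.20 at a floor of 5 FPKM or with no filter and -0.18 with a pseudocount of 5 FPKM. In the knockout 3 of 11 lay above 0, beside 8385 of 18663 genes, with a median of -0.08. Over the 11 markers with a value in each library, the summed level was 139 FPKM in control, 134 in the knockout and 122 in the transgenic library, and none of the 12 was listed at 0. Rpe65a, the isomerase of the visual cycle, stood at 32.5, 29.5 and 27.9, the opsin-like genes rgrb at 33.6, 36.7 and 24.6 and rgra at 14.0, 12.8 and 12.1, and the lactate transporter gene slc16a8 at 18.2, 17.2 and 24.7. Pmelb belongs to this list too. Tyr and dct were lower in the transgenic library than in control, and so was the summed level of these markers. Of the 9 melanin pigment genes, 5 lay below 0 in this comparison and 4 above, tyrp1a and tyrp1b among the latter. The part of this tissue in the levels of the 9 was not tested.

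**Figure D4:**
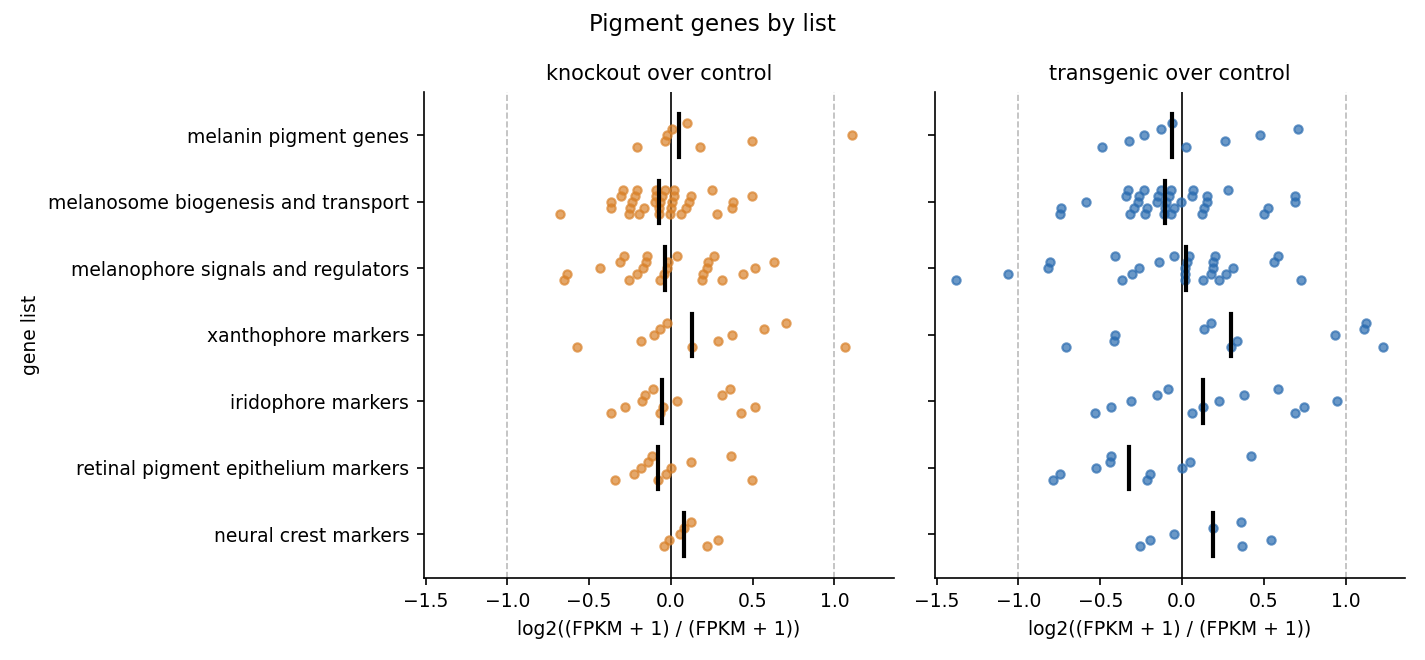
Log2((FPKM + 1)/(FPKM + 1)) of each gene compared (points) in the knockout and the transgenic over control, by gene list, with the list median as a black bar and dashed lines at a 2-fold difference. Tyrp1a in the knockout, at 1.11, stands apart from the other melanin pigment genes, and the lowest list median in the transgenic panel is that of the retinal pigment epithelium markers, at -0.32 with the floor of 1 FPKM plotted.

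The genes whose pair of log2 ratios over control was closest to the median pair of the 9 (0.06 for the knockout, -0.06 for the transgenic) were ebf3a, park7, emx2, erp44 and fbxl5. They were taken from 9950 genes with a mean of at least 5 FPKM, by Euclidean distance over 2 ratios from 3 libraries, and the largest distance was 0.008. A pattern so near 0 is held by many genes.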

How the data were processed

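The submitters' processing notes name HISAT, StringTie, DESeq2 and the build GRCz11; no role, version or use of strand is given for them in the sources used here. FPKM of all 3 libraries was deposited by the authors, per the file headers. That table, as used here, holds 19699 complete genes and ends mid-line, so knockout values under 0.58 FPKM are missing except for 40 genes of the comparison table. Genes much lower in the knockout than in another library can thus be left out of its comparisons. The shares of all genes past the rule are therefore not fully alike between comparisons. Deposited comparisons of 24529 (transgenic) and 266 (knockout) genes give FPKM with 0 written as 0.01, the log2 ratio, the p-value and the FDR (held as a score, since rounding takes it past 1), per the file headers. These p-values compare single libraries, so none served here as a test of a condition.

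Depth was inferred from those p-values. For genes at 0 in control they return whole reads (within 0.05 of a read for 100% of 991 transgenic and 15 knockout genes) if the upper tail of the Poisson comparison leaves out the observed count. Over 56 of 71 genes with 10 or more reads, outliers set aside, the depth had a coefficient of variation of 1.27% with 120 bases taken off each length. For 8 of the 9 members, whole reads within 5% of the estimates returned the authors' p to within 0.05%. Of these, 6 had 1 such pair of reads, slc45a2 had 2 and tyrp1b had 5. More pairs were tried for genes with more reads, so a match says less for abundant genes. For oca2 none matched, so its intervals are less certain.

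Comparisons took genes that reached 1 FPKM in either library, with a pseudocount of 1 FPKM. The members and 6 gene lists were chosen with earlier results of these data known. Of 114 symbols, 105 matched in the files and 9 through RefSeq's gene table of assembly GRCz12tu, used for names and gene order only. Of the lists, genes past the 2-fold rule over control and the 4 highest in control were named; other genes named are said to be so where they occur. Alternatives were other pseudocounts, floors, a call at 0.5 and scaling by the median ratio. Python 3.11.15, numpy 2.4.6, pandas 2.3.3, scipy 1.17.1 and matplotlib 3.10.9 were used, and scripts were tested on simulated counts.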

Additional observations from a re-analysis of the deposited data

How the results depend on the processing

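No paired analysis was possible because each group has 1 library. Of the alternatives, only scaling by the median ratio can change the sign of a single gene. Tyrp1a, the member past the rule, stood at 1.14 with that scaling in the knockout over control. The sign of the members' median held in each comparison, though its size for the transgenic over knockout ran from -0.31 to -0.11. With a pseudocount of 0.1 FPKM, 832, 2088 and 1567 of all genes passed the 2-fold rule (knockout over control, transgenic over control, transgenic over knockout), and 2, 13 and 4 genes of the other lists. With 5 FPKM these were 40, 228 and 243 of all genes and 0 of the other lists in each, and 0 members passed in the knockout. With a floor of 5 FPKM, 127 of 10466 genes passed in the knockout and 534 of 10963 in the transgenic over control. In the other lists 2 passed at that floor for the transgenic over control and 0 for the transgenic over knockout. At a call of 0.5, 2191 (11.7%), 4846 (25.2%) and 3996 (21.3%) of all genes passed. So did 1 of the 8 members compared in the knockout over control, tyrp1a. In each comparison with the transgenic library 1 of the 9 did, tyrp1a over control and tyr over the knockout. Over control tyr lay just under this call, at -0.49, and mlana, kept apart from the 9, passed it at -0.73. With mlana left out, the share of the members was near that of all genes in the knockout over control and smaller in the other comparisons. Counts this small are not read further. Dct and pmela in the knockout were so near 0 that scaling by the median ratio turned their sign. List medians near 0 depended on the floor. At 5 FPKM the knockout median was -0.07 for xanthophore markers and 0.04 for melanophore signals and regulators, against 0.13 and -0.03 at 1 FPKM, and the cause was not tested. Counting error limits mitfa, slc24a5 and oca2 most.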

Other observations

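The deposited annotation assigns 217 genes to KEGG melanogenesis, a broad pathway that also holds calcium-binding proteins and G proteins. Of 181 compared in the knockout, 2 were past the 2-fold rule, beside 1.46% of all genes (0.798% higher). Both were higher, tyrp1a and cabp4, a calcium-binding protein of photoreceptors. Cabp4 stood at 1.73 FPKM in control, 4.62 in the knockout and 1.43 in the transgenic library. Of 185 compared in the transgenic library, 3 were past it, all higher, beside 4.82% of all genes (3.56% higher). They were gna14, a G protein subunit, at 1.73 (control) and 5.08 FPKM (transgenic), rcn3, a calcium-binding protein of the secretory pathway, at 4.45 and 10.1, and capsla at 0.80 and 2.92. Neither count was above the share of all genes in both directions together. The list medians were -0.003 and 0.01. These genes were chosen after their values were seen, and the list was added after the data were examined.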
